A study of Homo sapiens with 9 samples.

Results

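P-TEFb is the kinase complex that releases paused RNA polymerase II into productive transcription, and the genes described here encode its kinase, its cyclins, the protein parts of its 7SK brake and its partners in the super elongation complex. They are CDK9, CCNT1, CCNT2, HEXIM1, HEXIM2, LARP7, MEPCE, AFF4 and ELL2, chosen by name, and each had 1 row among the 58735 genes of a table of read counts, so that 9 of 9 were found. The table comes from bulk RNA sequencing of SKOV3, an ovarian cancer cell line, in 9 libraries, 3 in each of 3 groups. In the WT CDK9 group the cells expressed introduced wild-type CDK9 and were untreated. In the ALK inhibitor group, cells expressing WT CDK9 had received an inhibitor of the receptor tyrosine kinase ALK for 24 h. The labels name neither the inhibitor nor its dose. In the Tyr19Phe CDK9 group, untreated cells expressed CDK9 in which phenylalanine, which cannot be phosphorylated, replaces tyrosine at codon 19. Whether the cells' own CDK9 had been depleted is not stated for these libraries, and the number of independent clones behind each line is not given.

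P-TEFb joins the kinase CDK9 to a T-type cyclin, and phosphorylates the polymerase tail, the pausing factor NELF and the SPT5 subunit of DSIF. Much of the complex in a cell is held inactive on the 7SK small nuclear RNA, where HEXIM proteins block the kinase, LARP7 binds the end of the RNA and MEPCE caps it. Active P-TEFb can be brought to genes as part of the super elongation complex, whose scaffold is AFF4 or AFF1 and which also contains an ELL protein. HEXIM1 is known to be induced when P-TEFb is released from the brake, so its transcript is often read as a measure of P-TEFb activity.

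The libraries held between 18169050 and 29320184 counts assigned to genes, and those of the Tyr19Phe group were deeper, the median total being 1.45 times that of the WT group. Levels are given in CPM after TMM scaling, whose factors lay between 0.986 and 1.01, so a count of 0 allows up to 0.101 to 0.165 CPM, the value of 3 counts in the deepest and the shallowest library. That limit covers counting error alone. Inhibitor replicate 2, with 19944 detected genes, and Tyr19Phe replicate 3, with 20635, had the fewest detected genes of their groups, so counts of called genes are also given without both. Replicate libraries differed more than sampling of reads gives, by 4.25 to 8.74 times on the scale of squared differences. P-values here measure the spread between these libraries, since the labels do not say whether replicates were separate cultures.

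The label SKOV3 was compared with marker genes. All 7 of 7 epithelial and SKOV3 markers (ERBB2, KRT7, KRT8, KRT18, KRT19, EPCAM and PAX8) were detected in every library, with summed levels of 5313, 5501 and 5361 CPM in WT replicates 1 to 3, 5840, 5979 and 5924 CPM with the inhibitor, and 5214, 5351 and 5158 CPM with Tyr19Phe. ERBB2, the receptor gene amplified in SKOV3, had 1798 ± 50.5 CPM (SD, n = 3) in the WT group and 2622 ± 8.62 CPM with the inhibitor. Of 9 markers of leukocytes, endothelium, fibroblasts, hepatocytes and muscle, only the collagen gene COL1A1 passed the filter on low counts. The summed level of those 9 was 104, 103 and 108 CPM in the WT libraries, 116, 150 and 136 CPM with the inhibitor, and 45.8, 38.4 and 31.4 CPM with Tyr19Phe, nearly all of it COL1A1. The leukocyte genes PTPRC and CD3E were at 0 in all Tyr19Phe libraries and at 3 counts or fewer in every other library. CD68, also a leukocyte gene, was at 0 in all WT libraries and reached 4 counts with the inhibitor and 3 counts with Tyr19Phe. The part of these marker differences in the results was not tested, and in bulk libraries fewer cells of a type cannot be told apart from less RNA per cell.

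Single markers differed between the groups under these sums. Of the 7 epithelial and SKOV3 markers, edgeR's quasi-likelihood test with Benjamini-Hochberg adjustment called 1 lower and 2 higher with the inhibitor against WT, beside 4.55% of all tested genes. It called 3 lower and 2 higher with Tyr19Phe against WT, beside 18%, and 3 lower and 3 higher with Tyr19Phe against the inhibitor, beside 20.7%. With the inhibitor ERBB2 rose by 45.9% and KRT7 fell by 21.4%. KRT19 rose by 15.8%, a call that ended without WT replicate 1 (adjusted p = 0.18 by edgeR) or inhibitor replicate 3 (0.191). With Tyr19Phe against WT, KRT19 fell from 245 ± 17.3 to 104 ± 6.82 CPM and EPCAM from 21.2 ± 1.60 to 12.0 ± 1.99 CPM (SD, n = 3), and ERBB2 fell by 18.3%. KRT8 rose by 29.7% and KRT18 by 31.2%. The fibroblast marker COL1A1 fell by 63.5% with Tyr19Phe against WT and was lower by 71.5% than with the inhibitor. With the inhibitor it rose by 27.8%, but that call ended with DESeq2 (adjusted p = 0.194) and, by edgeR, without WT replicate 1 (0.0653), inhibitor replicate 2 (0.147) or inhibitor replicate 3 (0.0662). All other calls of these markers held in the 19 alternative fits, which were made after the values were seen.

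The position that separates the WT and Tyr19Phe proteins lies in exon 1 of CDK9, the gene listed as ENSG00000136807 at chr9:127785679-127790787 on the plus strand of hg38. The reference sequence around it is shown because it marks what distinguishes those groups. It runs from codon 10 to codon 28 of transcript ENST00000373264.5 (GENCODE 44) at chr9:127786176-127786232, plus strand, hg38, with the tyrosine codon 19 at 127786203-127786205 in capitals.
CDK9 codons 10 to 28: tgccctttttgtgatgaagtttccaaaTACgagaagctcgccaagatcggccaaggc
A gene-level count sums every read assigned to CDK9, so transcripts of the introduced and of the cell's own gene cannot be told apart in these values.

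All 9 genes had reads in every library and passed the filter on low counts, which kept 16350 genes for testing. Levels can be compared between genes only per length, as CPM per kilobase of the listed gene length. On that scale HEXIM1 stood highest in the WT group at 46.6 ± 0.915 CPM per kilobase (SD, n = 3). ELL2 at 17.2 ± 1.07, AFF4 at 16.9 ± 0.504, CDK9 at 16.2 ± 0.342 and CCNT1 at 15.5 ± 0.664 CPM per kilobase followed. ELL2 overlapped AFF4, AFF4 overlapped CDK9 and CDK9 overlapped CCNT1, so the order within these 4 is not separated by the spread of the libraries, while CCNT1 did not overlap the next gene. MEPCE at 11.5 ± 0.0404 and LARP7 at 10.8 ± 1.17 CPM per kilobase overlapped each other as well. CCNT2 at 5.12 ± 0.514 and HEXIM2 at 0.660 ± 0.213 CPM per kilobase stood apart at the bottom. With Tyr19Phe, CDK9 ranked second at 18.3 ± 1.31 CPM per kilobase, and its libraries did not overlap those of ELL2, the next in the order at 15.2 ± 0.902. Levels of CDK9 sum introduced and own transcripts, so its rank does not describe the cell's own gene alone.

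**Figure D1:**
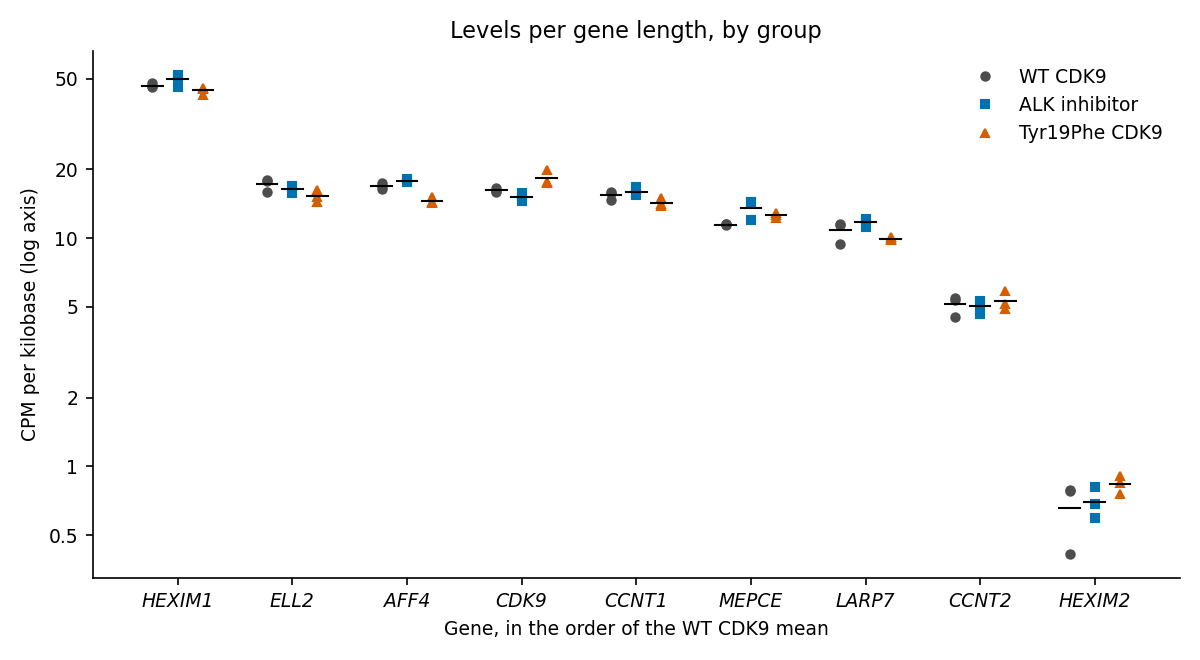
Levels of the 9 genes in CPM per kilobase of gene length on a log axis, with 1 point per library (circles WT CDK9, squares ALK inhibitor, triangles Tyr19Phe CDK9) and black lines for the mean of 3 libraries. HEXIM1 lies above the rest at 44.4 to 49.6 CPM per kilobase by group mean, 6 genes crowd between 9.93 and 18.3, and HEXIM2 lies below 1 in every library.

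The cyclin and HEXIM pairs were unevenly used. The ratio of CCNT1 to CCNT2 per kilobase was 3.03 ± 0.190 in the WT group, 3.19 ± 0.346 with the inhibitor and 2.73 ± 0.364 with Tyr19Phe (SD, n = 3 each), and the groups overlapped. HEXIM1 exceeded HEXIM2 by ratios of 77.6 ± 32.4, 72.1 ± 8.45 and 53.3 ± 5.48 in the same order, although the genes lie only 8598 bases apart on chromosome 17. The WT mean rests on replicate 2, at 115 from 16 counts of HEXIM2, while replicates 1 and 3 were at 58.8 and 58.9. The WT group overlapped each of the others. The Tyr19Phe libraries, at most 59.6, lay below the inhibitor libraries, at least 62.4. The ratio of HEXIM1, the inhibitor, to CDK9, its target, was 2.84, 2.88 and 2.92 in WT replicates 1 to 3, 3.48, 2.93 and 3.42 with the inhibitor, and 2.44, 2.57 and 2.28 with Tyr19Phe. The lowest library with the inhibitor thus lay just above the highest WT library, and all Tyr19Phe libraries lay below the WT group. The ratio of both cyclins together to CDK9 was 1.32, 1.16 and 1.34 in the WT libraries, 1.45, 1.36 and 1.35 with the inhibitor, and 1.11, 1.13 and 0.990 with Tyr19Phe, again without overlap between groups. Ratios to CDK9 also depend on transcripts of the introduced gene, whose level may differ between the lines. These ratios were not tested.

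**Figure D2:**
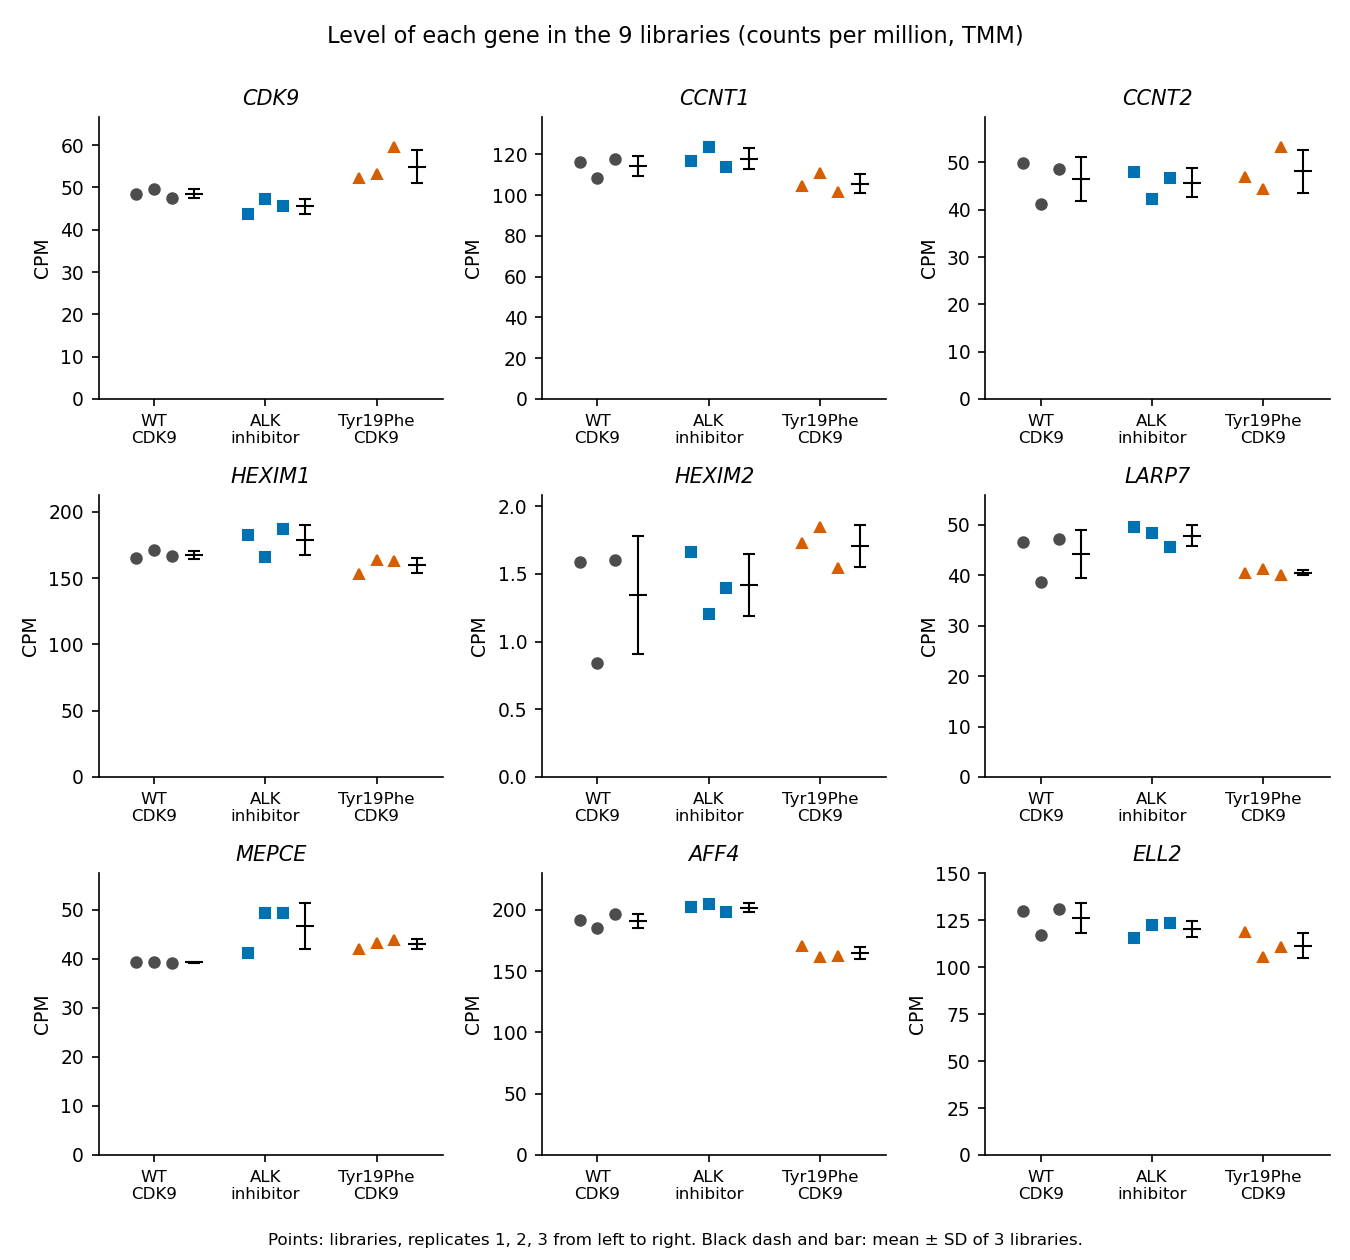
Level of each gene in every library in CPM, 1 panel per gene with an axis from 0, with points for replicates 1, 2 and 3 of each group and a black mark and bar for the mean ± SD of 3 libraries. AFF4 lies at 162 to 171 CPM with Tyr19Phe and at 185 to 205 CPM elsewhere, CDK9 is highest with Tyr19Phe, and HEXIM2 stays below 2 CPM.

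The first comparison asks what 24 h of ALK inhibition did in cells with WT CDK9. None of the genes of P-TEFb, its brake or its partners changed by the test: edgeR's quasi-likelihood test with Benjamini-Hochberg adjustment over 16350 genes called 0 of 9, against a background of 4.55% of tested genes, at an adjusted p under 0.05. DESeq2 also called 0, and 1 of 9 had an unadjusted p under 0.05 in edgeR, which was MEPCE. The libraries of the compared groups did not overlap for 3 of 9, CDK9 being lower and MEPCE and AFF4 higher, against 19.6% of all tested genes. Their log2 fold changes ran from -0.09 for CDK9 to 0.25 for MEPCE, with a median of 0.08 and 3 below 0. The median absolute log2 fold change was 0.0806 over the 9 genes and 0.126 over all tested genes. The same test called 744 of all tested genes, 297 higher and 447 lower. With library size alone as scaling those were 406 and 344, and without WT replicate 1 the total was 491.

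The second comparison asks what distinguishes cells with Tyr19Phe CDK9 from cells with WT CDK9. Cells expressing the mutant are a separate line, so an effect of the mutation cannot be told apart from other differences between the lines. AFF4 fell by 13.8% and ELL2 by 11.6%, and these were the only 2 of 9 genes called by edgeR's quasi-likelihood test, against 18% of tested genes. Both calls were in the lower direction, against 10.4% of tested genes called lower, and DESeq2 also called 2. Before adjustment 3 of 9 had p under 0.05, the third being CDK9. The groups did not overlap for 4 of 9, with CDK9 and MEPCE higher and HEXIM1 and AFF4 lower, against 32.6% of tested genes. The median log2 fold change of the 9 genes was -0.07, and their median absolute log2 fold change was 0.131, beside 0.181 over all tested genes. Since the call of ELL2 ended without some libraries, the count was 1 of 9 without WT replicate 1 or 3 or Tyr19Phe replicate 2 or 3, and also without both libraries with the fewest detected genes.

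The third comparison sets the Tyr19Phe group directly against the ALK inhibitor group. The groups differ in the introduced CDK9, in the line that carries it and in treatment, and the parts of these cannot be told apart. CDK9 was higher with Tyr19Phe than with the inhibitor by 20.7%, while AFF4, LARP7, HEXIM1 and CCNT1 were lower by 18.4%, 15.3%, 10.6% and 10.4%. These were the 5 of 9 genes called by edgeR's quasi-likelihood test, against 20.7% of tested genes, and DESeq2 called 5 as well. The 4 called lower stand beside 11.1% of tested genes called lower, and the 1 called higher beside 9.57% called higher. The same 5 had unadjusted p under 0.05 and libraries that did not overlap between the groups, against 34.4% of tested genes. The count was 1 of 9 without inhibitor replicate 1, 3 without inhibitor replicate 2, and 2 without Tyr19Phe replicate 1, without Tyr19Phe replicate 3, or without both libraries with the fewest detected genes. The first and second comparisons share the WT libraries and the third uses the libraries of both, so no overlap between them is drawn.

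**Figure D3:**
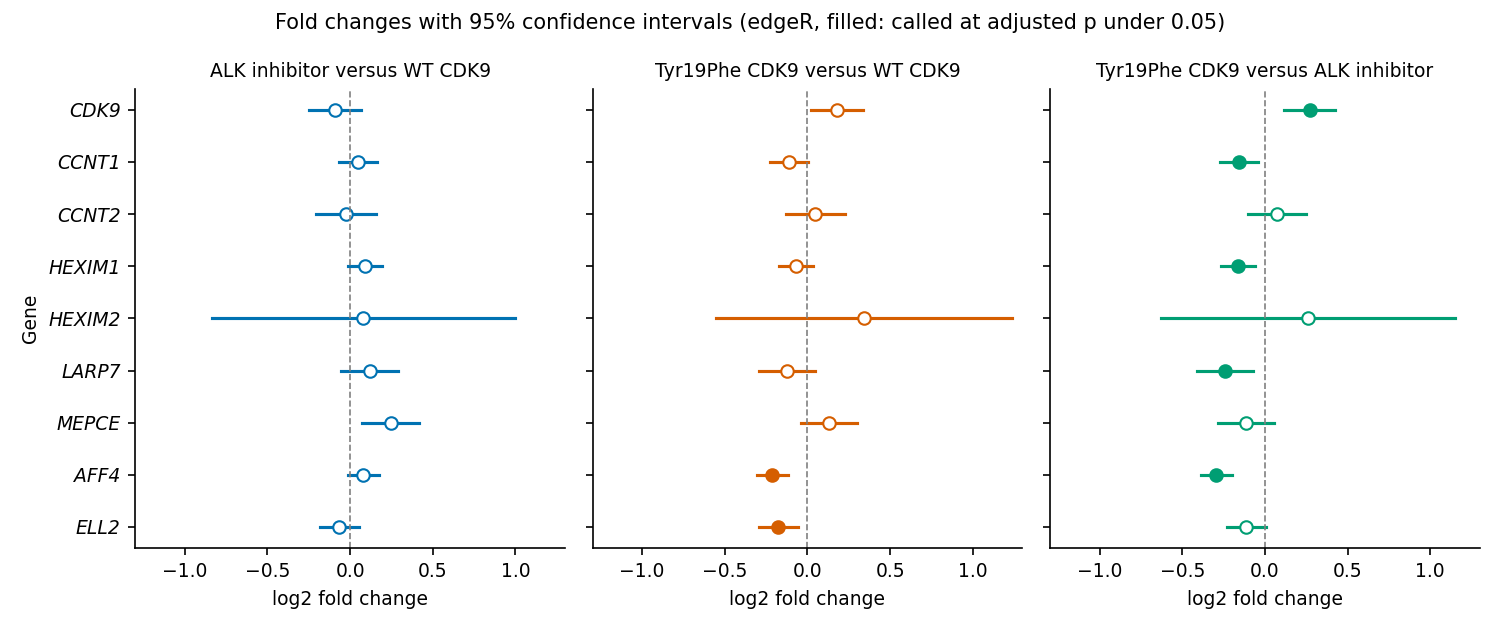
log2 fold change of each of the 9 genes with its 95% confidence interval from edgeR, in 1 panel per comparison, filled where the gene was called and open where it was not. No point is filled for the inhibitor against WT, 2 are filled for Tyr19Phe against WT (AFF4 and ELL2), 5 are filled for Tyr19Phe against the inhibitor, and the intervals of HEXIM2 are the widest.

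CDK9, the kinase itself, had 48.4, 49.6 and 47.6 CPM in WT replicates 1 to 3, 43.7, 47.2 and 45.6 CPM with the inhibitor, and 52.3, 53.1 and 59.5 CPM with Tyr19Phe. The Tyr19Phe libraries were the highest and the inhibitor libraries the lowest, with no overlap among the groups, and Tyr19Phe replicate 3 was the highest of all. Against WT, the log2 fold change was -0.09 (95% confidence interval -0.25 to 0.07) with the inhibitor and 0.18 (0.02 to 0.33) with Tyr19Phe, with adjusted p of 0.665 and 0.106 in edgeR's quasi-likelihood test with Benjamini-Hochberg adjustment. Directly compared, CDK9 was higher with Tyr19Phe by 0.27 in log2 (0.12 to 0.43, SE 0.0763, adjusted p = 0.00961 by the same edgeR test). That call ended without inhibitor replicate 1 (adjusted p = 0.0541 by edgeR), without Tyr19Phe replicate 3 (0.0793) and without both libraries with the fewest detected genes (0.0716). Genes near CDK9 were more often called higher: among the 121 other tested genes within 5 Mb on chromosome 9, the median log2 fold change of Tyr19Phe over WT was 0.11, with 30 called higher and 15 called lower, and 0.11 in the direct comparison, with 36 higher and 16 lower. Over all tested genes 7.61% were called higher and 10.4% lower with Tyr19Phe against WT. With the inhibitor the neighbours' median was -0.01. The counts of CDK9 sum introduced and own transcripts. The part of the introduced gene or of the neighbourhood in the level of CDK9 was not tested.

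CCNT1 encodes cyclin T1, the main cyclin partner of CDK9, and lies at chr12:48688458-48716998 on the minus strand (ENSG00000129315). It had 116, 109 and 118 CPM in the WT libraries, 117, 123 and 114 CPM with the inhibitor, and 104, 111 and 102 CPM with Tyr19Phe. The Tyr19Phe libraries lay below every inhibitor library but overlapped the WT group. The log2 fold change was 0.05 for the inhibitor and -0.11 for Tyr19Phe against WT, with adjusted p of 0.801 and 0.187 in edgeR's quasi-likelihood test with Benjamini-Hochberg adjustment. Directly compared it was lower with Tyr19Phe, with a log2 fold change of -0.16 (95% confidence interval -0.27 to -0.04) and an adjusted p of 0.0438 by the same edgeR test. This call was lost in 5 of the 9 fits that leave out a library: WT replicate 1 (adjusted p = 0.0575 by edgeR), inhibitor replicates 1 (0.0784) and 2 (0.194), and Tyr19Phe replicates 1 (0.107) and 3 (0.183). Without both libraries with the fewest detected genes it was 0.411, and it also ended with upper quartile scaling (0.0628), with no filter beyond 1 count (0.0653) and with only the compared groups in the fit (0.0521).

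CCNT2, the gene of the related cyclin T2 (ENSG00000082258, chr2:134918235-134959342, plus strand), ranged from 41.2 to 49.8 CPM in the WT group, from 42.3 to 48.1 CPM with the inhibitor and from 44.3 to 53.2 CPM with Tyr19Phe. All groups overlapped. Its log2 fold changes were -0.02, 0.05 and 0.07 in the 3 comparisons, none called, and each turned its sign when certain libraries were left out. An antisense gene, CCNT2-AS1, overlaps its first bases with a mean of 14.3 counts.

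HEXIM1, which blocks the kinase on the 7SK RNA, is a gene of chr17:45148502-45152101 on the plus strand (ENSG00000186834). It had 165, 171 and 167 CPM in the WT libraries, 183, 166 and 187 CPM with the inhibitor, and 153, 163 and 163 CPM with Tyr19Phe. Inhibitor replicate 2 lay within the WT range and the other two above it, while all Tyr19Phe libraries lay below both other groups. The log2 fold change against WT was 0.09 (95% confidence interval -0.01 to 0.20) with the inhibitor and -0.07 (-0.17 to 0.03) with Tyr19Phe, with adjusted p of 0.409 and 0.399 in edgeR's quasi-likelihood test with Benjamini-Hochberg adjustment. In the direct comparison HEXIM1 was lower with Tyr19Phe, with a log2 fold change of -0.16 (-0.26 to -0.06, SE 0.0501) and an adjusted p of 0.0195 by the same edgeR test. Without inhibitor replicate 1 that adjusted p by edgeR was 0.088, without inhibitor replicate 3 it was 0.14 and without Tyr19Phe replicate 1 it was 0.0997, so the call ended in each case. For the 214 neighbours within 5 Mb the median was 0.01, 0.01 and -0.01 in the 3 comparisons.

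HEXIM2, the paralogue of HEXIM1 with the same role, was barely expressed (ENSG00000168517, chr17:45160700-45170040, plus strand). Its 9 libraries held 16 to 52 counts each, or 0.843 to 1.85 CPM, and the groups overlapped. The log2 fold changes of 0.08, 0.34 and 0.26 had 95% confidence intervals of -0.83 to 1.00, -0.55 to 1.24 and -0.63 to 1.15, and all 3 intervals include 0. The antisense gene AC138150.2 overlaps 13.3% of HEXIM2 and had a mean of 35.1 counts, and the strandedness of the counting is not given, so reads of the shared stretch cannot be told apart. The antisense gene AC138150.1 overlaps 47.3% of HEXIM1, but with a mean of 2.78 counts.

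LARP7, which holds the 7SK RNA by its end and protects it, had 46.5, 38.6 and 47.2 CPM in the WT libraries, 49.5, 48.4 and 45.6 CPM with the inhibitor, and 40.4, 41.2 and 40.0 CPM with Tyr19Phe (ENSG00000174720, chr4:112636964-112657592, plus strand). WT replicate 2 was the lowest of the 9 libraries, and the Tyr19Phe group lay below the inhibitor group without overlap. Against WT the log2 fold change was 0.12 (95% confidence interval -0.05 to 0.29) with the inhibitor and -0.12 (-0.29 to 0.05) with Tyr19Phe, with adjusted p of 0.586 and 0.364 in edgeR's quasi-likelihood test with Benjamini-Hochberg adjustment. Directly compared it was lower with Tyr19Phe by a log2 fold change of -0.24 (-0.41 to -0.07, SE 0.0834, adjusted p = 0.0379 by the same edgeR test). The call ended without inhibitor replicate 1 (adjusted p = 0.133 by edgeR) or 2 (0.0906), and without Tyr19Phe replicate 1 (0.084), 2 (0.0748) or 3 (0.104), and was 0.169 without both libraries with the fewest detected genes. LARP7 lies in a stretch of chromosome 4 where most genes were lower with Tyr19Phe. Of its 28 tested neighbours within 5 Mb, 26 had log2 fold changes below 0 against WT, 14 were called lower and 0 higher by edgeR, and the median was -0.35. In the direct comparison the neighbours' median was -0.31 with 13 called lower, while with the inhibitor against WT it was -0.02. LARP7 itself stood above the neighbours' median in both, by 0.23 and 0.07 in log2, and the part of the neighbourhood in its level was not tested.

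MEPCE, the enzyme that methylates the cap of the 7SK RNA (ENSG00000146834, chr7:100428790-100434126, plus strand), had 39.3, 39.3 and 39.1 CPM in the WT libraries, 41.2, 49.3 and 49.2 CPM with the inhibitor, and 42.0, 43.1 and 43.9 CPM with Tyr19Phe. The WT libraries were nearly identical and lower than all others, and inhibitor replicate 1 stood apart from its group on the low side. The log2 fold change against WT was 0.25 (95% confidence interval 0.07 to 0.42) with the inhibitor, with an adjusted p of 0.102 in edgeR's quasi-likelihood test with Benjamini-Hochberg adjustment. Without inhibitor replicate 1 it was 0.33 with an adjusted p of 0.031 by edgeR, the only fit tried in which MEPCE was called. With Tyr19Phe it was 0.13 against WT and -0.11 against the inhibitor, with adjusted p of 0.317 and 0.37 by the same edgeR test.

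AFF4, the scaffold of the super elongation complex, was the gene with the smallest adjusted p of the 9 in both comparisons of Tyr19Phe (ENSG00000072364, chr5:132875379-132963634, minus strand). It had 192, 185 and 196 CPM in the WT libraries, 202, 205 and 198 CPM with the inhibitor, and 171, 162 and 162 CPM with Tyr19Phe. All Tyr19Phe libraries lay below all 6 others, and all inhibitor libraries above all WT libraries. AFF4 fell with Tyr19Phe against WT, with a log2 fold change of -0.21 (95% confidence interval -0.31 to -0.12, SE 0.0457, adjusted p = 0.000854, edgeR's quasi-likelihood test with Benjamini-Hochberg adjustment). Against the inhibitor it was lower with a log2 fold change of -0.29 (-0.39 to -0.20, SE 0.0456, adjusted p = 1.05e-05 by the same edgeR test). Both calls held in each alternative tried and without any 1 library, with edgeR or DESeq2 adjusted p of at most 0.0112 against WT and 0.00168 against the inhibitor. With the inhibitor against WT the log2 fold change was 0.08 (-0.01 to 0.17), with an adjusted p of 0.448 by the same edgeR test. Its 59 neighbours within 5 Mb on chromosome 5 had a median log2 fold change of -0.03 for Tyr19Phe against WT, with 7 called lower and 3 higher.

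ELL2, an elongation factor within the same complex (ENSG00000118985, chr5:95885098-95962071, minus strand), had 130, 117 and 131 CPM in the WT libraries, 116, 123 and 124 CPM with the inhibitor, and 119, 105 and 111 CPM with Tyr19Phe. The groups overlapped, since Tyr19Phe replicate 1 lay above WT replicate 2. ELL2 fell with Tyr19Phe against WT, with a log2 fold change of -0.18 (95% confidence interval -0.30 to -0.06, SE 0.0580, adjusted p = 0.0299, edgeR's quasi-likelihood test with Benjamini-Hochberg adjustment). The adjusted p by edgeR was 0.151 without WT replicate 1, 0.154 without WT replicate 3, 0.179 without Tyr19Phe replicate 2, 0.0952 without Tyr19Phe replicate 3 and 0.0987 without both libraries with the fewest detected genes. It was 0.0695 with library size alone as scaling and 0.0589 with upper quartile scaling. With the inhibitor the log2 fold change was -0.07 against WT, and Tyr19Phe against the inhibitor gave -0.11, with adjusted p of 0.693 and 0.188 by the same edgeR test.

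Other genes overlap these 9 in the table's coordinates. On the strand opposite to LARP7, ZGRF1 shares 32 bases and had a mean of 418 counts, and AC106864.1 overlaps 17.3% of LARP7 with a mean of 2.44 counts. ZCWPW1 overlaps 3.8% of MEPCE on the opposite strand with a mean of 69.6 counts, and AC104123.1 shares 71 bases with ELL2 with a mean of 9 counts. The microRNA genes MIR3960 and MIR2861 in CDK9 and the genes AC010240.2, RF00019 and ATP6V0E1P1 in AFF4 had 0 counts. Within LARP7, MIR367 and MIR302C had means of 0.333 and 0.222 counts, and MIR302A, MIR302B and MIR302D had 0. CCNT1 had no overlapping gene.

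**Figure D4:**
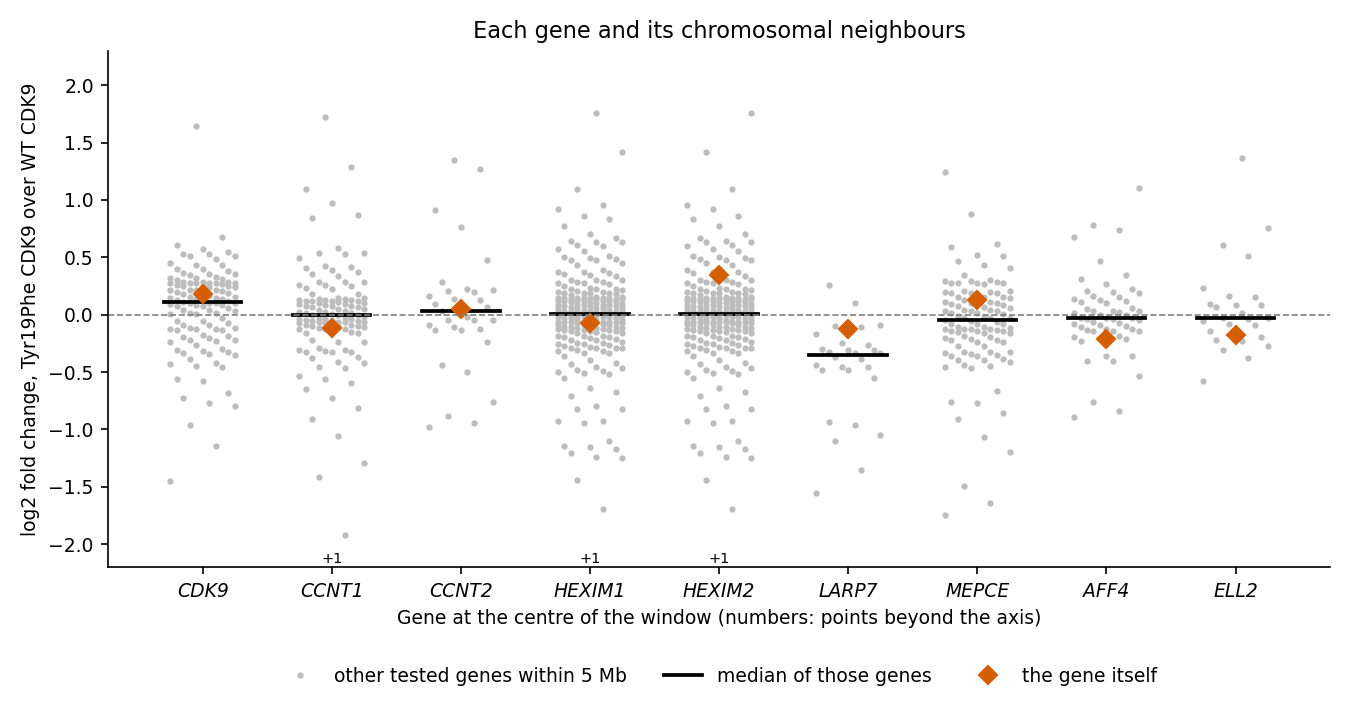
log2 fold change of Tyr19Phe CDK9 over WT CDK9 for each of the 9 genes (diamonds), for the other tested genes within 5 Mb of it (grey points) and for the median of those (black lines), with small numbers for points beyond the axis. The median lies at -0.35 around LARP7 and at 0.11 around CDK9, and between -0.05 and 0.03 around the other 7 genes.

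The region before the start of HEXIM1 and of AFF4 is shown as an example. Both genes were lower with Tyr19Phe than with the inhibitor, as were CCNT1 and LARP7, whose windows were searched but are not shown. Windows of 250 bases upstream of the start were available for 8 of the 9 genes in RefSeq (GRCh38.p14), 13 windows in all, and ELL2 had none. They were searched on both strands for TATAAA (the TATA box), CCAAT (the CCAAT box), GGGCGG (the GC box), CACGTG (the E-box), CGGAAG (an ETS motif) and TGACGT (the start of the cAMP response element), which stand in capitals as read on the gene's strand. The HEXIM1 window lies at chr17:45148225-45148474 on the plus strand and the AFF4 window at chr5:132963635-132963884 on the minus strand, both in GRCh38.p14.
HEXIM1: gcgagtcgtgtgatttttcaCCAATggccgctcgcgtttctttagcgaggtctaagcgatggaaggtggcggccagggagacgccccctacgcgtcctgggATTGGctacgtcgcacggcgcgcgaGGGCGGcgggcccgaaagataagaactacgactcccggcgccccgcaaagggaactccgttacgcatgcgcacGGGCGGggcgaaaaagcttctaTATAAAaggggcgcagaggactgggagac
AFF4: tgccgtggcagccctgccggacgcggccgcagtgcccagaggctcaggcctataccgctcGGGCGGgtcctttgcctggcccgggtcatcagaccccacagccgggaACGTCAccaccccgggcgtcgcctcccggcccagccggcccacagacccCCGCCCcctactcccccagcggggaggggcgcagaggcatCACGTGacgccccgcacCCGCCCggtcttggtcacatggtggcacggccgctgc
HEXIM1 held 1 match to TATAAA, starting 29 bases before the start, with 2 to CCAAT and 2 to GGGCGG, and AFF4 held 3 to GGGCGG, 1 to CACGTG and 1 to TGACGT. No matches overlapped in these windows. Counted by window, as for all genes, TATAAA was in 1 of the 13 windows, that of HEXIM1, against 10.7% of the 35116 windows of all genes. CCAAT was in 6 of the 13, against 32% of all windows, and GGGCGG in 9, against 42.6%. CACGTG was in 3 (6.34% of all windows), CGGAAG in 2 (16.5%) and TGACGT in 5 (7.1%). Some of the 13 windows belong to the same gene. A match describes these letters and no more.

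Genes whose levels follow those of CDK9 and HEXIM1 across the 9 libraries were ranked by Pearson's r of log2 CPM, among the 14037 tested genes that averaged 1 CPM or more. All points share the same libraries and the differences between the 3 groups, so r is a description. For CDK9 the highest were EEF1E1 (r = 0.977), INSYN2B (0.972), SET (0.963), HTATSF1 (0.958) and ADRA1B (0.955). SET, a histone chaperone gene, averaged 688 ± 4.44 CPM in the WT group, 643 ± 6.68 CPM with the inhibitor and 783 ± 32.1 CPM with Tyr19Phe (SD, n = 3), the same order of groups as for CDK9. SET lies within 5 Mb of CDK9 on chromosome 9, in the stretch whose genes were more often called higher with Tyr19Phe. For HEXIM1 the highest were LAMTOR4 (r = 0.975), ELOVL4 (0.950), NDUFV3 (0.933), SYNC (0.926) and FAM149A (0.918). With Tyr19Phe against WT, genes within 5 Mb of FAM149A had a median log2 fold change of -0.22 (11 called lower, 0 higher). Around NDUFV3 it was -0.11 (18 lower, 1 higher), and around LAMTOR4, ELOVL4 and SYNC -0.03, -0.09 and 0.04. The part of these neighbourhoods was not tested. LAMTOR4, a subunit of the lysosomal Ragulator complex, averaged 21.1 ± 0.949, 23.6 ± 3.43 and 19 ± 1.92 CPM in the same groups. Between CDK9 and HEXIM1 themselves r was -0.68, and between CDK9 and CCNT1 it was -0.79.

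Around these 9 genes, 69 further genes of the pathway were listed in 7 groups, of which 66 were tested. With the inhibitor 7 of the 66 (10.6%) were called by edgeR, 3 lower and 4 higher, beside 4.55% of all tested genes. With Tyr19Phe against WT 21 (31.8%) were called, 10 lower and 11 higher, beside 18%, and against the inhibitor 20 (30.3%), 12 lower and 8 higher, beside 20.7%. Median log2 fold changes over the 66 were -0.02, 0.01 and 0.02. Over all tested genes, the shares called lower and higher were 2.73% and 1.82% with the inhibitor, 10.4% and 7.61% with Tyr19Phe against WT, and 11.1% and 9.57% against the inhibitor. In fits of protein-coding genes alone, 5.98%, 22.7% and 25.8% of tested genes were called in the 3 comparisons. The lists were written with earlier results of these data known, so their shares are a description. No test of the list as a whole was made.

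**Figure D5:**
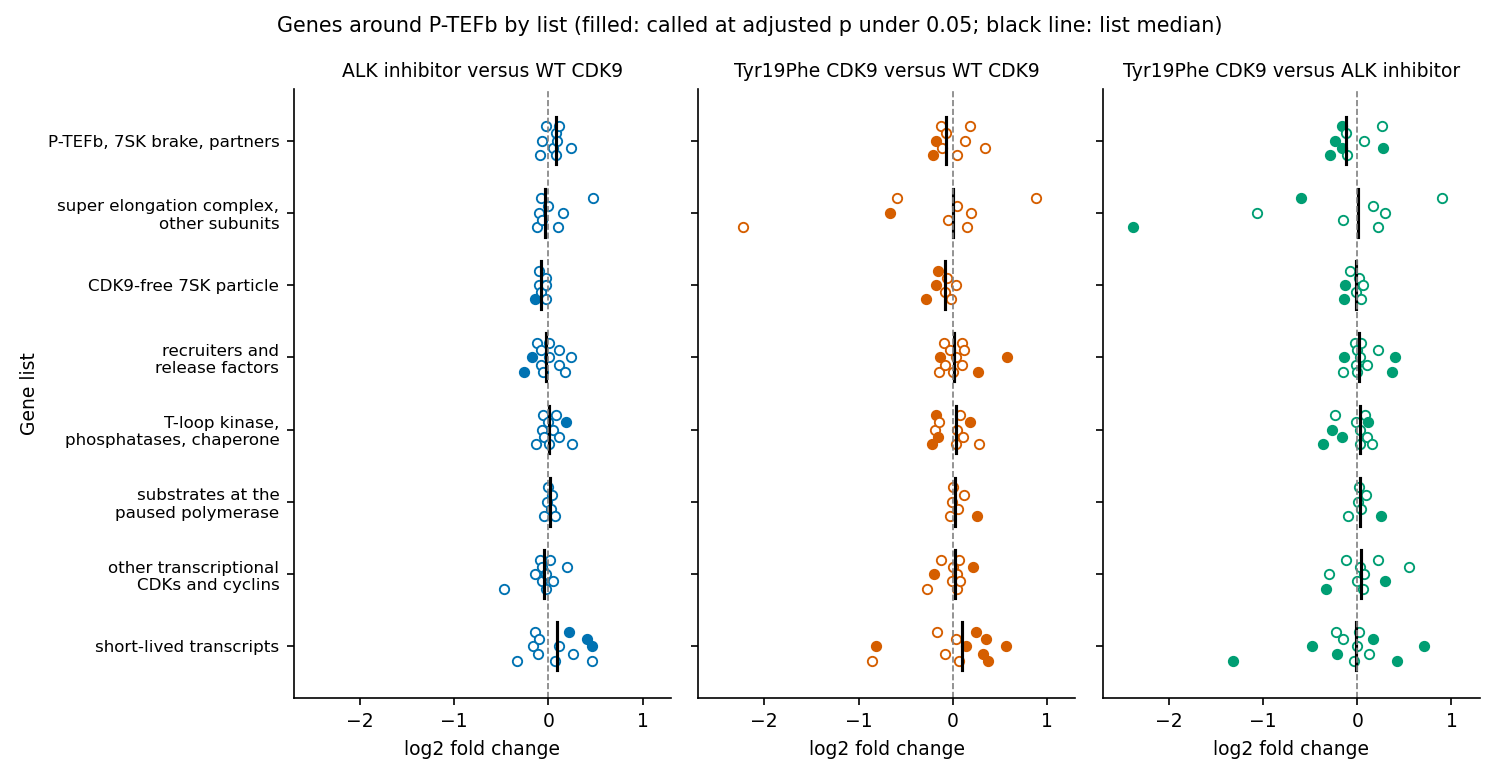
log2 fold change of each tested gene of the pathway lists, 1 row per list and 1 panel per comparison, filled where the gene was called, with a black line at the median of the list. The medians lie between -0.11 and 0.10, and single genes such as AFF2 at -2.38 and AFF1 at -0.60 for Tyr19Phe against the inhibitor lie far from them.

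Among the other subunits of the super elongation complex, 8 of 9 were tested, with median log2 fold changes of -0.04, -0.00052 and 0.01 in the 3 comparisons. With the inhibitor edgeR called 0 of the 8, DESeq2 also called 0, and 0 had an unadjusted p under 0.05. With Tyr19Phe 1 was called lower against WT and 2 against the inhibitor, beside 10.4% and 11.1% of all tested genes. AFF1, the scaffold that can replace AFF4, had 120, 111 and 118 CPM in the WT libraries, 105, 113 and 117 CPM with the inhibitor, and 78.9, 71.7 and 70.2 CPM with Tyr19Phe. Every Tyr19Phe library lay far below the other 6. AFF1 fell by 36.9% against WT, a log2 fold change of -0.66 (SE 0.0610, adjusted p = 7.48e-10, edgeR's quasi-likelihood test with Benjamini-Hochberg adjustment), and was lower by 34.1% than with the inhibitor (log2 -0.60, adjusted p = 4.56e-09 by the same edgeR test). AFF1 also lies on chromosome 4, where the 48 tested genes within 5 Mb had a median log2 fold change of -0.24 against WT, with 17 called lower and 1 higher. This neighbourhood was looked up after the value of AFF1 was seen, and its part in that value was not tested. AFF2, which had 1 to 34 counts per library, was lower with Tyr19Phe than with the inhibitor at a log2 fold change of -2.38 (adjusted p = 0.045 by edgeR), and without inhibitor replicate 1, which held the 34 counts, it was -1.15 (adjusted p = 0.539 by edgeR). That call also ended without any 1 of the WT replicates or of the Tyr19Phe replicates, with adjusted p of 0.0684 to 0.179 by edgeR, with the replicate number as a block (0.0755), with no filter beyond 1 count (0.078) and without both libraries with the fewest detected genes (0.11).

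The second list holds the 7SK RNA and proteins that bind it once P-TEFb has left. RN7SK, the RNA itself, had 0 counts in all 9 libraries, which allows up to 0.101 to 0.165 CPM, so the level of the brake's RNA cannot be read from these counts. Over all tested genes, 2.73%, 10.4% and 11.1% were called lower in the 3 comparisons. Of the 7 proteins tested, 1 was called lower with the inhibitor, 3 lower with Tyr19Phe against WT and 2 lower against the inhibitor, with median log2 fold changes of -0.07, -0.09 and -0.01. HNRNPA1, a nuclear RNA-binding protein and the most often called of them, had 984, 1011 and 985 CPM in the WT libraries, 930, 865 and 911 CPM with the inhibitor, and 766, 848 and 840 CPM with Tyr19Phe. The groups were in that order without overlap. HNRNPA1 fell by 17.6% with Tyr19Phe (log2 -0.28, adjusted p = 1.22e-06, edgeR's quasi-likelihood test with Benjamini-Hochberg adjustment). With the inhibitor it fell by 9.18% (log2 -0.14, adjusted p = 0.0255 by edgeR), and in the direct comparison it was lower by 9.32% (log2 -0.14, adjusted p = 0.00655 by edgeR). The call with the inhibitor ended without any 1 of the WT replicates or without inhibitor replicate 2 or 3 (adjusted p of 0.0527 to 0.218 by edgeR), without both libraries with the fewest detected genes (0.214) and with library size alone (0.0874), and the direct call ended without inhibitor replicate 1 (0.0507) or Tyr19Phe replicate 1 (0.071). SYNCRIP and HNRNPA2B1, further RNA-binding proteins, fell with Tyr19Phe against WT by 11.5% and 10.4% (adjusted p = 0.000996 and 0.00361 by edgeR). HNRNPA2B1 was also lower than with the inhibitor (log2 -0.13, adjusted p = 0.0139 by edgeR). Its call against WT ended without WT replicate 1 (0.058 by edgeR) or Tyr19Phe replicate 1 (0.0556), and that against the inhibitor without inhibitor replicate 2 (0.0718), without Tyr19Phe replicate 1 (0.14) or without both libraries with the fewest detected genes (0.095).

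The recruiters and release factors bring P-TEFb to genes or free it from the brake, and all 12 were tested. With the inhibitor 2 were called lower, with Tyr19Phe 1 lower and 2 higher against WT, and 1 lower and 2 higher against the inhibitor, with median log2 fold changes of -0.03, 0.02 and 0.01. Shares of all tested genes were 2.73%, 10.4% and 11.1% called lower and 1.82%, 7.61% and 9.57% called higher. BRD3, a gene of a chromatin-binding protein, had 44.2, 46.8 and 38.7 CPM in the WT libraries, 51.2, 48.3 and 47.3 CPM with the inhibitor, and 64.6, 70.5 and 58.8 CPM with Tyr19Phe. It rose by 49.4% with Tyr19Phe against WT (log2 0.58, SE 0.0820, adjusted p = 2.62e-06, edgeR's quasi-likelihood test with Benjamini-Hochberg adjustment) and was higher by 32.1% than with the inhibitor (log2 0.40, adjusted p = 0.000399 by edgeR). BRD3 lies on chromosome 9 like CDK9, and the 136 tested genes within 5 Mb of it had a median log2 fold change of 0.21 against WT, with 45 called higher and 8 lower. That window was looked up after the value of BRD3 was seen, and its part was not tested.

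DDX21, an RNA helicase that releases P-TEFb from the 7SK particle, lay below the WT group with the inhibitor and above it with Tyr19Phe, without overlap. It had 297, 275 and 271 CPM in the WT libraries, 247, 220 and 241 CPM with the inhibitor, and 311, 298 and 307 CPM with Tyr19Phe. It fell by 16.1% with the inhibitor (log2 -0.25, adjusted p = 0.000502, edgeR's quasi-likelihood test with Benjamini-Hochberg adjustment) and was higher by 29.4% with Tyr19Phe than with the inhibitor (log2 0.37, adjusted p = 2.7e-07 by edgeR). Against WT its log2 fold change with Tyr19Phe was 0.12, with an adjusted p of 0.0752 by edgeR. Its 83 tested neighbours within 5 Mb, looked up after the values were seen, had a median of 0.19 against WT, with 18 called higher by edgeR, and their part was not tested. NPM1, a nucleolar protein, fell by 11.4% with the inhibitor and by 8.95% with Tyr19Phe (adjusted p = 0.00152 and 0.00581 by edgeR). JMJD6, a gene of a nuclear oxygenase, rose by 20.8% with Tyr19Phe (log2 0.27, adjusted p = 0.0389 by edgeR), a call that ended without any 1 of the WT replicates or without Tyr19Phe replicate 1 or 2 (adjusted p of 0.0553 to 0.158 by edgeR), and with no filter beyond 1 count (0.0509). BRD2 was lower with Tyr19Phe than with the inhibitor (log2 -0.14, adjusted p = 0.0134 by edgeR), but not without inhibitor replicate 3 (0.0512) or Tyr19Phe replicate 1 (0.102).

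CDK9 is activated on its T-loop and folded with a chaperone, and the kinase, phosphatases, chaperones and ligase that act on it form a list of 11, all tested. With the inhibitor 1 was called higher, with Tyr19Phe 3 lower and 1 higher against WT, and 3 lower and 1 higher against the inhibitor, with median log2 fold changes of 0.01, 0.04 and 0.02. Among all tested genes 2.73%, 10.4% and 11.1% were called lower and 1.82%, 7.61% and 9.57% higher. PPP1CB, a catalytic subunit of protein phosphatase 1, had 385, 386 and 412 CPM in the WT libraries, 443, 445 and 456 CPM with the inhibitor, and 369, 343 and 335 CPM with Tyr19Phe. The inhibitor libraries were all above and the Tyr19Phe libraries all below the WT group. It rose by 13.5% with the inhibitor and fell by 11.6% with Tyr19Phe, and was lower by 22.1% in the direct comparison (adjusted p = 0.00553, 0.00226 and 5.91e-08, edgeR's quasi-likelihood test with Benjamini-Hochberg adjustment). Without WT replicate 1 the adjusted p by edgeR with the inhibitor was 0.0567. PPP1CC, another such subunit, fell by 14.0% with Tyr19Phe against WT (adjusted p = 0.000602 by edgeR), and PPM1A, a phosphatase of the CDK9 T-loop, was lower by 16.7% than with the inhibitor (adjusted p = 0.000579). Around PPM1A, 62 tested genes lie within 5 Mb, a window looked up after the values were seen. Against the inhibitor their median log2 fold change was -0.07, with 14 called lower and 2 higher. Against WT it was -0.16, with 17 called lower and 1 higher, and the part of these neighbours was not tested. The remaining lower calls of this list with Tyr19Phe were PPM1A against WT (log2 -0.15) and PPP1CC against the inhibitor (log2 -0.16). Both are named after their values were seen, and no alternatives are given for these calls. The kinase chaperone CDC37 rose by 13.5% with Tyr19Phe (adjusted p = 0.0106 by edgeR), although its groups overlapped and the call ended without WT replicate 1 (0.0543) or 3 (0.088) or Tyr19Phe replicate 2 (0.0772). Its partner HSP90AB1 was higher by 8.33% with Tyr19Phe than with the inhibitor (log2 0.12, adjusted p = 0.00379 by edgeR). That adjusted p was 0.077 by edgeR without both libraries with the fewest detected genes. The 79 tested neighbours of HSP90AB1 within 5 Mb had a median log2 fold change of 0.09 there, with 11 called higher and 2 lower. They were looked up after the values were seen, and their part was not tested.

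Among the substrates of P-TEFb at the paused polymerase, 6 of 7 were tested, and the medians of their log2 fold changes were 0.01, 0.03 and 0.03. After inhibition of ALK edgeR called 0 of the 6, DESeq2 also called 0, and 0 had an unadjusted p under 0.05. NELFB, a subunit of the pausing factor NELF, had 116, 125 and 117 CPM in the WT libraries, 122, 120.0 and 116 CPM with the inhibitor, and 138, 147 and 142 CPM with Tyr19Phe. All Tyr19Phe libraries were above the other 6, and NELFB rose by 19.3% against WT (log2 0.26, SE 0.0527, adjusted p = 0.00058, edgeR's quasi-likelihood test with Benjamini-Hochberg adjustment) and was higher by 19.3% than with the inhibitor (adjusted p = 0.000504). NELFB lies on chromosome 9 within 5 Mb of BRD3, and its 102 tested neighbours had a median log2 fold change of 0.24 against WT, with 36 called higher and 6 lower, a window looked up after the values were seen whose part was not tested. POLR2A, the subunit of the polymerase with the phosphorylated tail, had 241, 223 and 228 CPM in the WT libraries, 238, 234 and 215 CPM with the inhibitor, and 239, 220.4 and 231 CPM with Tyr19Phe. Its groups overlapped, with log2 fold changes of -0.0091, -0.0030 and 0.0062, and the 95% confidence interval with the inhibitor ran from -0.11 to 0.09. SUPT5H, the gene of SPT5, had 137, 131 and 133 CPM in the WT libraries, 144, 133 and 132 CPM with the inhibitor, and 145, 148 and 141 CPM with Tyr19Phe. Its log2 fold change with Tyr19Phe against WT was 0.12 with an adjusted p of 0.119 by edgeR, and it was 0.03 with the inhibitor.

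Of the 10 genes of other transcriptional kinases and their cyclins, edgeR called 0 with the inhibitor, as did DESeq2, with 1 at an unadjusted p under 0.05. With Tyr19Phe 1 was lower and 1 higher in each comparison, and the medians of the log2 fold changes were -0.05, 0.02 and 0.04. Of all tested genes 10.4% were called lower and 7.61% higher with Tyr19Phe against WT, and 11.1% and 9.57% against the inhibitor. CCNL2, the cyclin L2 partner of CDK11, rose by 16.0% against WT and was higher by 23.0% than with the inhibitor (adjusted p = 0.00238 and 3.74e-05, edgeR's quasi-likelihood test with Benjamini-Hochberg adjustment). CCNC, the Mediator cyclin, fell by 12.7% against WT (adjusted p = 0.0163 by edgeR), but not without WT replicate 3 (0.138), Tyr19Phe replicate 2 (0.0756) or 3 (0.0624), or both libraries with the fewest detected genes (0.0578). CDK19, a Mediator kinase, was lower by 20.4% with Tyr19Phe than with the inhibitor (adjusted p = 0.00279 by edgeR), and 0.091 without both libraries with the fewest detected genes.

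The last list holds 12 short-lived transcripts that are known from other work to fall quickly when the CDK9 kinase is inhibited, and all 12 were tested. The groups here instead had 24 h of an ALK inhibitor or expressed Tyr19Phe CDK9, so the settings are not alike. With the inhibitor edgeR called 3, all higher, while 4 were lower and 4 higher at an unadjusted p under 0.05 and DESeq2 called 1 lower and 3 higher. Beside this, edgeR called 2.73% of all tested genes lower and 1.82% higher with the inhibitor. With Tyr19Phe 1 was lower and 6 higher against WT, and 3 lower and 3 higher against the inhibitor. Of all tested genes 10.4% were called lower and 7.61% higher in the former, and 11.1% and 9.57% in the latter. The median log2 fold changes were 0.09, 0.10 and -0.02. JUNB, an AP-1 transcription factor gene, had 71.9, 78.6 and 63.3 CPM in the WT libraries and 93.6, 98.9 and 102 CPM with the inhibitor. It rose by 37.9% with the inhibitor (log2 0.46, SE 0.0692, adjusted p = 2.1e-05, edgeR's quasi-likelihood test with Benjamini-Hochberg adjustment). IER2 and IER3, early response genes, rose with the inhibitor by 32.5% and 16.7% (adjusted p = 0.00968 and 0.00797 by edgeR). The call of IER2 ended without WT replicate 3 (0.0831 by edgeR) or inhibitor replicate 3 (0.103), and that of IER3 without WT replicate 1 (0.0504).

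CCND1, the gene of cyclin D1, had 452, 457 and 453 CPM in the WT libraries, 432, 427 and 407 CPM with the inhibitor, and 554, 557 and 583 CPM with Tyr19Phe. It rose by 24.5% with Tyr19Phe against WT and was higher by 33.8% than with the inhibitor (adjusted p = 1.32e-07 and 3.55e-10, edgeR's quasi-likelihood test with Benjamini-Hochberg adjustment). The 192 tested neighbours of CCND1 within 5 Mb were looked up after the values were seen. Their median log2 fold change was 0.06 against WT, with 29 called higher and 15 lower. Against the inhibitor it was 0.07, with 37 higher and 15 lower, and their part was not tested. The early response gene IER3 rose by 27.4% with Tyr19Phe against WT (adjusted p = 5.93e-06 by edgeR), and its 214 neighbours within 5 Mb, looked up after the values were seen, had a median log2 fold change of 0.13, with 35 called higher and 5 lower. EGR1, an immediate early transcription factor gene, went the other way, with 33.6, 29.6 and 39.3 CPM in the WT libraries, 26.1, 22.8 and 32.4 CPM with the inhibitor, and 22.4, 17.4 and 18.6 CPM with Tyr19Phe. All Tyr19Phe libraries lay below the other 6, and EGR1 fell by 42.9% against WT (log2 -0.81, SE 0.123, adjusted p = 8.22e-06 by edgeR). Against the inhibitor it was lower by 28.1% (adjusted p = 0.00513 by edgeR), but not without inhibitor replicate 3 (0.0949). BCL6, a transcriptional repressor gene, was higher by 62.9% with Tyr19Phe than with the inhibitor (adjusted p = 0.00605 by edgeR), and that call ended without Tyr19Phe replicate 2 (0.0693).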

How the data were processed

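RNA from SKOV3 cells was sequenced in 9 libraries. The authors deposited raw read counts per gene and library, with hg38 as the genome. Their processing notes name CASAVA, HISAT2 2.0.5 and featureCounts 1.5.0-p3. The annotation release and strandedness are not given in the sources used here. Counts were fitted in R 4.3.3 with edgeR 4.0.16 (limma 3.58.1), with TMM scaling and its filter on low counts (minimum count 10, minimum total 15), which kept 16350 of 58735 genes. All 9 libraries entered 1 quasi-likelihood fit with a mean per group and 6 residual degrees of freedom. P-values were adjusted by Benjamini-Hochberg over all tested genes and called under 0.05. Scripts were tested on simulated data. Alternatives were DESeq2 1.42.0, other scalings and filters, protein-coding genes alone, the compared groups alone, a replicate block, each library left out and both libraries with the fewest detected genes left out.

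The members and lists were chosen with earlier results of these data known. Named are every member, the called genes of each pathway list (at most 3 per list and comparison, by smallest adjusted p), RN7SK, SUPT5H and POLR2A, the 5 genes most like CDK9 and the 5 most like HEXIM1, and genes that overlap a member. Alternatives for the genes of the lists and the cell type markers were applied after their values were seen. Levels per kilobase use the gene length listed in the table. Promoter windows are RefSeq sequences (GRCh38.p14), read with Python 3.11.15, and figures were drawn with matplotlib 3.10.9.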

Additional observations from a re-analysis of the deposited data

Results flagged for a closer look

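These 5 genes differed between the Tyr19Phe group and the ALK inhibitor group, by the test of the direct contrast in edgeR. The Tyr19Phe cells are a separate line, and differences between lines, such as those of neighbouring genes around LARP7 and CDK9, cannot be told apart from an effect of the mutation. The difference of log2 fold changes against the shared WT libraries, Tyr19Phe minus inhibitor, was 0.27 for CDK9, -0.16 for CCNT1, -0.16 for HEXIM1, -0.24 for LARP7 and -0.29 for AFF4. Without any 1 library the call of AFF4 held, while those of the other 4 each ended without at least 1 library named beside their values.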

How the results depend on the processing

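For the 9 genes, 513 values under alternatives were computed: 472 kept direction and side of the threshold, 28 lost a call, 1 gained one and 12 turned direction, all of these 12 of genes that were not called. With library size alone CCNT2 with the inhibitor was 0.0011 in log2, and without both libraries with the fewest detected genes CCNT2 was 0.0303 with the inhibitor, -0.0235 for Tyr19Phe against WT and -0.0538 against the inhibitor. Without 1 library at a time CCNT2 ranged from -0.10 to 0.0309, from -0.0288 to 0.11 and from -0.0013 to 0.13, and HEXIM2 with the inhibitor from -0.16 to 0.23. The number of the 9 called for Tyr19Phe against WT was 1 with library size alone, upper quartile scaling or both libraries left out, and 1 to 2 without 1 library. It was 2 against the inhibitor without both libraries, and 1 to 5 without 1 library, and 0 to 1 for the inhibitor against WT. All called genes numbered 491 to 738, 2180 to 3038 and 2622 to 3426 in the 3 comparisons without 1 library. Without both libraries with the fewest detected genes they numbered 530, 2482 and 2267. With the replicate number as a block 818, 3076 and 3465 genes were called, and 0, 2 and 5 of the 9. Libraries of the same number correlated by -0.0116 to 0.026 after group means were removed, and 3 of 9 did so best with their own number. Of 739 values for named genes of the lists 692 kept direction and side and 47 lost a call. Of 54 mean levels 53 moved by less than 1 SD, and MEPCE in the WT group moved to 38.8 CPM with library size alone. The causes were not tested.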

Other observations

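ALK, the target of the inhibitor, was looked up after other values were seen. It had 0, 0 and 5 counts in the WT libraries, 2, 3 and 0 with the inhibitor, and 5 in each Tyr19Phe library. No difference between the groups is read from counts this low, and none was tested.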
